A study of Homo sapiens with 6 samples.

Results

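Caspases are the proteases that carry out apoptosis, and the inhibitor of apoptosis proteins hold them in check. Described here are 8 genes of that machinery, chosen by name: the initiator caspase genes CASP8 and CASP9, the inhibitor of apoptosis genes BIRC2, BIRC5, BIRC6 and XIAP, and DIABLO and HTRA2, whose mitochondrial proteins counter the inhibitors. They were 8 of the 18936 genes with read counts, and all 8 passed the filter on low counts that left 15120 genes for testing. Expression was measured by RNA sequencing in a human bladder carcinoma cell line, UC3, and in its chemoresistant subline, UC3DDP, with 3 libraries of each. UC3DDP, which the study calls UC3-R, was selected by exposure to rising doses of cisplatin, a DNA-crosslinking platinum drug, and gemcitabine, a cytidine analogue. No drug treatment of the sequenced cells is named in the labels, which do not say whether the subline is a clone or whether its replicates were separate cultures. Each p-value therefore reflects only how far libraries of a line differ, and that spread may be technical. A bulk library cannot tell fewer cells that express a gene from less RNA of it per cell.

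As background, caspase-8 is activated at death receptors on the cell surface, and caspase-9 on the apoptosome, a platform of APAF1 that assembles when cytochrome c leaves the mitochondrion. Both initiators start a cascade in which further caspases are cleaved and dismantle the cell. XIAP binds and blocks caspases directly, including caspase-9, cIAP1, the product of BIRC2, is a ubiquitin ligase of the TNF receptor complex, and BIRC6 is a very large ubiquitin-conjugating protein. Survivin, the product of BIRC5, also belongs to the chromosomal passenger complex that directs chromosome segregation in mitosis. SMAC, the product of DIABLO, and the serine protease HTRA2 reside between the mitochondrial membranes and, once released, bind inhibitor of apoptosis proteins.

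The 8 genes are spread over 5 autosomes and the X chromosome, and promoters were looked at because the genes moved in different directions. RefSeq windows on GRCh38.p14, from 250 bases before to 50 after an annotated start, matched 7 of the 8 genes, and the start nearest the gene's deposited 5′ end was taken. For BIRC2, CASP8, HTRA2 and CASP9 that start lay inside the deposited gene span, farthest for CASP9. The windows of 4 genes are printed, those of BIRC6 and HTRA2 because these genes fell and rose most, and those of BIRC2 and CASP9 because only they held a searched motif. Capitals mark a match to the cAMP response element TGACGTCA or to the GC box GGGGCGGGG, each searched on both strands; no marked matches overlap.
BIRC6, chr2:32356773-32357072, plus strand: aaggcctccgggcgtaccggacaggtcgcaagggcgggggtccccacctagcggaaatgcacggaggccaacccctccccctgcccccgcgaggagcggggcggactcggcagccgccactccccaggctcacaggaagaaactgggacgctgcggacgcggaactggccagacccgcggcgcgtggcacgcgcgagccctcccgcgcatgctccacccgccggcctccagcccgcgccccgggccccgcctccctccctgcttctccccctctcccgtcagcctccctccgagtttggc
HTRA2, chr2:74529683-74529982, plus strand: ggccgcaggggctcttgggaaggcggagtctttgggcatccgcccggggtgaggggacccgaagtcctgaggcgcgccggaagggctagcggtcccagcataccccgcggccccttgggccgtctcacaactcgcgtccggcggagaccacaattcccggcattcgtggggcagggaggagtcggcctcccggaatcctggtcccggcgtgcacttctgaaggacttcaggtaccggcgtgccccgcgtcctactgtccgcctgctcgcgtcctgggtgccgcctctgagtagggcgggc
BIRC2, chr11:102346964-102347263, plus strand: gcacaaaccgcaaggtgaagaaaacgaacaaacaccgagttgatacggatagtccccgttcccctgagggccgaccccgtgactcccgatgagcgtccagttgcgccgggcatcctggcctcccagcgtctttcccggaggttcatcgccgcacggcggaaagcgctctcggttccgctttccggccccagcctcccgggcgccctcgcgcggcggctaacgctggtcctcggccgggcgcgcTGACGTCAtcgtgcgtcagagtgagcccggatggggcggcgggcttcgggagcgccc
CASP9, chr1:15524741-15525040, minus strand: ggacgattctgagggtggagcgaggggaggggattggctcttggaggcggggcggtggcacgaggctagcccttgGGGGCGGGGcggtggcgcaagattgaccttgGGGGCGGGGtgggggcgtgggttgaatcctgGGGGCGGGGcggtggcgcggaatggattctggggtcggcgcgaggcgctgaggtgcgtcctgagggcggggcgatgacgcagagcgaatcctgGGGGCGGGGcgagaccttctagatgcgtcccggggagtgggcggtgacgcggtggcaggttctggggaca
The BIRC2 window held 1 cAMP response element, a motif found in 1.84% of the 34943 RefSeq promoter windows of this length. CASP9's window held 4 GC boxes, and 15.7% of all windows held at least 1. An ETS motif, CCGGAAGT, present in 4.11% of windows, was searched in the same way and matched none of the 7. The GC content of the windows was 75.0% for BIRC6, 71.3% for CASP9, 70.3% for HTRA2, 68.7% for BIRC2, 58.3% for DIABLO, 48.0% for XIAP and 46.3% for CASP8, against a median of 58.7% over all windows. A motif match is a description of the letters and not a measured binding site.

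The UC3 libraries held 19467228 to 20803970 counts each, and the UC3DDP libraries 16757610 to 17254683. Levels are given in CPM, read counts relative to library size scaled by the trimmed mean of M values (TMM), as mean ± SD over 3 libraries, and a gene is called higher or lower at an adjusted p under 0.05 with an absolute log2 fold change over 1. The UC3DDP libraries held relatively more reads of GC-rich genes. Between the protein-coding genes in the top and bottom 20% by transcript GC content, the difference in log2 CPM relative to the UC3 mean was 2.44, 1.74 and 1.90 in UC3DDP replicates 1, 2 and 3, and from -0.02 to 0.02 in UC3. A second fit that removed each library's trend with GC content and length is therefore given beside the results, as the adjusted fit; whether the trend is technical was not tested. Of 14 urothelial and epithelial markers 10 were in the table, the uroplakin genes UPK1A and UPK2 stayed under 1 CPM, and the summed level, mostly KRT18, was 168 to 177 CPM in UC3 and 296 to 375 CPM in UC3DDP. Summed mesenchymal markers, mostly VIM, were far higher, at 1550 to 1598 CPM in UC3 and 3220 to 3616 CPM in UC3DDP. Summed endothelial markers were at 0.103 to 0.496 CPM in UC3 and 2.31 to 8.08 CPM in UC3DDP, fibroblast markers at 2.48 to 2.78 CPM and 5.21 to 12.1 CPM, and leukocyte markers reached at most 0.475 CPM; their part in the results was not tested.

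Of the 8 genes, BIRC5 and HTRA2 were called higher in UC3DDP, where 17.6% of all tested genes were, and BIRC2, BIRC6 and XIAP were called lower, where 23.1% of all tested genes were. These are 5 of 8 called in either direction, beside 40.7% of all tested genes. By the adjusted p alone 7 of 8 passed, CASP8 being the exception, beside 80.5% of all tested genes; CASP9 and DIABLO were under the fold limit. In all 8 genes the libraries of the lines did not overlap: CASP8 joined the 3 called lower with every UC3DDP library below every UC3 library, as in 41.6% of all tested genes, and CASP9 and DIABLO joined the 2 called higher with every UC3DDP library above, as in 42.1%. In the adjusted fit HTRA2 and DIABLO were called higher, against 13.1% of all genes, and BIRC6 alone was called lower, against 14.7%. The median log2 fold change of the 8 was 0.19 and 0.15 after adjustment, beside 0.02 and -0.04 over all tested genes.

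**Figure D1:**
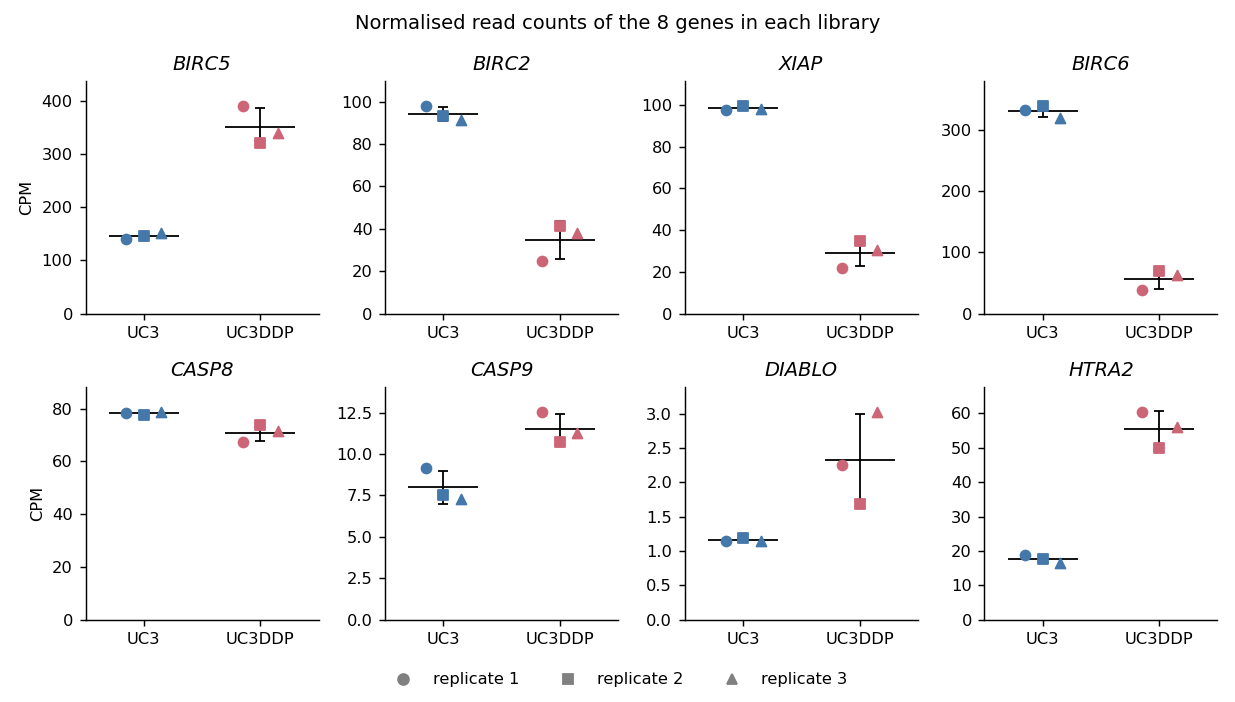
CPM of each of the 8 genes in every library, 1 panel a gene with its own linear axis from 0; points are the 3 libraries of UC3 and the 3 of UC3DDP with the replicate number as marker shape, horizontal lines their means and vertical bars the SD. No panel shows overlapping groups, and DIABLO lies between 1.14 and 3.02 CPM where BIRC6 reaches 339.5 CPM.

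BIRC6 had the largest change of the 8 in either direction. This gene, ENSG00000115760 at chr2:32357028-32618899 on the plus strand of GRCh38.p13, encodes the giant ubiquitin-conjugating inhibitor. Its level was 333, 339.5 and 320.4 CPM in the 3 UC3 libraries and 38.1, 69.1 and 63.1 CPM in the UC3DDP libraries. All UC3DDP values were far below the lowest of UC3, and replicate 1 was the lowest. The mean fell from 331 ± 9.72 to 56.8 ± 16.4 CPM, a log2 fold change of -2.54 (SE 0.19, adjusted p = 2.42e-06), and BIRC6 was 5.83-fold higher in UC3. After the GC and length adjustment the log2 fold change was -1.64 (SE 0.094, adjusted p = 8.44e-08), still past the fold limit.

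XIAP, ENSG00000101966 at chrX:123859724-123913976 on the plus strand, encodes the direct caspase blocker. Its level was 97.7, 99.5 and 98.0 CPM in UC3 and 22.0, 34.7 and 30.5 CPM in UC3DDP. The UC3 libraries lay within 2 CPM of one another, and replicate 1 was again the lowest of UC3DDP. The mean fell from 98.4 ± 0.935 to 29.1 ± 6.46 CPM, 3.38-fold, with a log2 fold change of -1.76 (SE 0.143, adjusted p = 3.91e-06). In the adjusted fit it was -0.50 (SE 0.0529, adjusted p = 7.75e-06), in the same direction but under the fold limit.

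The cIAP1 gene BIRC2, ENSG00000110330 at chr11:102347211-102378670 on the plus strand, was at 97.9, 93.3 and 91.3 CPM in UC3 and at 24.8, 41.3 and 38.2 CPM in UC3DDP. It showed the order of libraries seen for BIRC6 and XIAP within UC3DDP, with replicate 1 lowest and replicate 2 highest. This is the reverse of the order of the libraries' GC difference, 2.44 in replicate 1, 1.90 in replicate 3 and 1.74 in replicate 2. The mean fell from 94.2 ± 3.39 to 34.8 ± 8.75 CPM, a log2 fold change of -1.44 (SE 0.162, adjusted p = 2.97e-05). The adjusted fit gave -0.28 (SE 0.0716, adjusted p = 0.00455), under the fold limit. The longest transcripts of BIRC2 and XIAP had the lowest GC content of the 8 genes, 38.0% and 39.1%, followed by CASP8 at 42.6% and BIRC6 at 42.8%.

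BIRC5 moved in the opposite direction to the other inhibitor genes. This survivin gene, ENSG00000089685 at chr17:78214186-78225636 on the plus strand, was at 140.1, 146 and 150.5 CPM in UC3 and at 389.9, 319.8 and 339.9 CPM in UC3DDP. Every UC3DDP library was above every UC3 library, and replicate 1, the lowest for the other inhibitor genes, was the highest here. The order within UC3DDP was that of the libraries' GC difference, and its part in these orders was not tested. The mean rose from 145 ± 5.24 to 349.9 ± 36.1 CPM, a log2 fold change of 1.27 (SE 0.0873, adjusted p = 1.57e-06). In the adjusted fit BIRC5 reached 0.80 (SE 0.0532, adjusted p = 2.33e-07), under the fold limit; its transcript GC content was 52.2%.

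**Figure D2:**
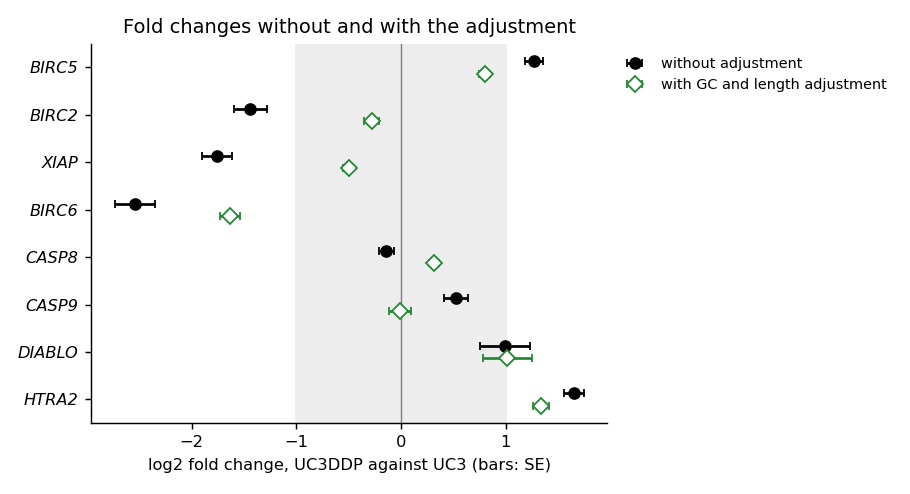
Log2 fold change of UC3DDP against UC3 for the 8 genes with its SE as bars, from the fit without and the fit with GC and length adjustment, with a grey band spanning the fold limit, 1 on either side of 0. BIRC2 and XIAP move from -1.44 and -1.76 to -0.28 and -0.50, and HTRA2 and BIRC6 stay outside the limit in both fits.

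Among the antagonists of the inhibitors, HTRA2, a serine protease gene, ENSG00000115317 at chr2:74529725-74533332 on the plus strand, was at 19.0, 17.6 and 16.5 CPM in UC3 and at 60.4, 50.02 and 56.0 CPM in UC3DDP. The lowest UC3DDP library was well above the highest UC3 library. The mean rose 3.13-fold from 17.7 ± 1.22 to 55.5 ± 5.2 CPM, with a log2 fold change of 1.65 (SE 0.0956, adjusted p = 7.02e-07), and the adjusted fit gave 1.34 (SE 0.075, adjusted p = 7.17e-08). HTRA2 shares 1101 of its 3405 exonic bases in GENCODE 44 with genes on the opposite strand, 936 with LOXL3 and 165 with AUP1, whose log2 fold changes were 0.86 and 1.18. The deposited summed exon length of HTRA2 is shorter, 1785 bases, and the shared part of it was not measured. Strand use in the counting is not given in the sources used, so shared reads cannot be told apart.

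DIABLO, ENSG00000184047 at chr12:122207663-122227456 on the minus strand, encodes SMAC and had the lowest counts of the 8. Its libraries held 23, 23 and 24 reads in UC3 and 38, 29 and 51 reads in UC3DDP, which is 1.14, 1.19 and 1.15 CPM against 2.26, 1.69 and 3.02 CPM. The groups did not overlap, but the UC3DDP libraries were spread widely for their mean of 2.32 ± 0.67 CPM, against 1.16 ± 0.025 CPM in UC3. The log2 fold change of 0.99 (SE 0.238, adjusted p = 0.0037) lay just under the fold limit, and the adjusted fit gave 1.01 (SE 0.236, adjusted p = 0.00246), just over it. Without UC3DDP replicate 3, the highest library, it was 0.76, and without UC3DDP replicate 2, the lowest, 1.17. Of DIABLO's 6960 exonic bases in GENCODE 44, 2247 are shared with other genes: 2192 with ENSG00000284934 and 1139 with ENSG00000256861, both on the same strand and not analysed here, and 970 with B3GNT4 on the opposite strand. The deposited summed exon length of DIABLO is shorter, 1471 bases, and the shared part of it was not measured. How reads of shared bases were counted is not given in the sources used, and their part in the low level was not tested.

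Neither initiator caspase gene was called in either direction. CASP8, ENSG00000064012 at chr2:201233443-201287711 on the plus strand, was at 78.4, 77.6 and 78.7 CPM in UC3 and at 67.3, 73.9 and 71.5 CPM in UC3DDP. Its means of 78.2 ± 0.561 and 70.9 ± 3.31 CPM gave a log2 fold change of -0.14 (SE 0.0698, adjusted p = 0.0879). Every UC3DDP library lay below the UC3 libraries, by a small amount. The sign turned in the adjusted fit, to 0.32 (SE 0.0485, adjusted p = 1.39e-04), with every UC3DDP library above the UC3 libraries. No direction is therefore given for CASP8.

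CASP9, ENSG00000132906 at chr1:15490832-15526534 on the minus strand, was at 9.13, 7.55 and 7.30 CPM in UC3 and at 12.5, 10.7 and 11.3 CPM in UC3DDP. Every UC3DDP library was above every UC3 library, by a narrow margin. Means of 7.99 ± 0.991 and 11.5 ± 0.936 CPM gave a log2 fold change of 0.52 (SE 0.119, adjusted p = 0.00272), under the fold limit. In the adjusted fit CASP9 was at -0.01 (SE 0.105, adjusted p = 0.921) and the libraries overlapped.

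**Figure D3:**
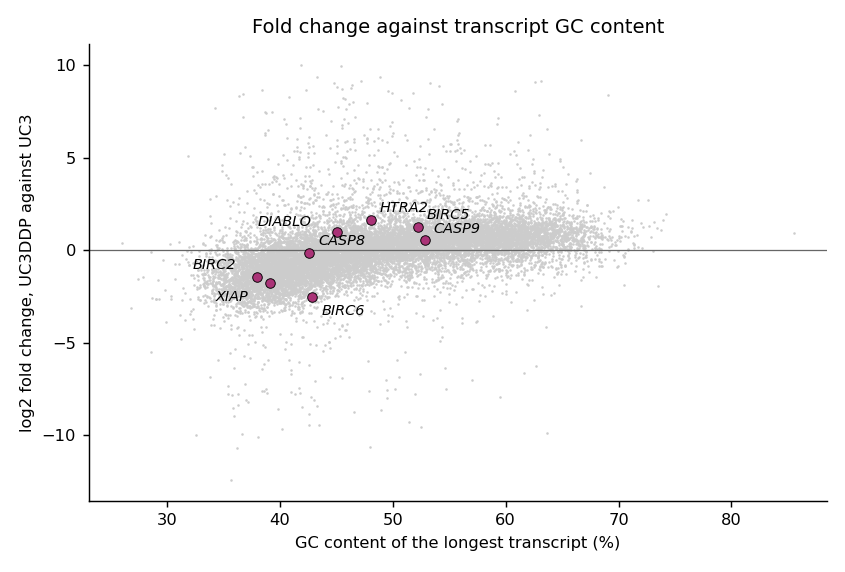
Log2 fold change of UC3DDP against UC3, from the fit without adjustment, against the GC content of each gene's longest transcript in percent; grey points are the tested genes with an annotated transcript, labelled points the 8 genes. The 3 genes called lower lie at 38.0% to 42.8% GC and the 2 called higher at 48.0% and 52.2%. BIRC6 and CASP8 have nearly equal GC content, 42.8% and 42.6%, and log2 fold changes of -2.54 and -0.14. They differ in summed exon length, 15703 and 2659 bases, which the plot does not show and which the adjusted fit also takes into account.

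To compare levels between genes, CPM was divided by the deposited summed exon length. In UC3 the order in CPM per kb was BIRC5 at 56.5 ± 2.03, CASP8 at 29.4 ± 0.211, BIRC2 at 25.0 ± 0.901, BIRC6 at 21.1 ± 0.619, XIAP at 11.5 ± 0.109, HTRA2 at 9.92 ± 0.681, CASP9 at 2.85 ± 0.353 and DIABLO at 0.789 ± 0.017. No neighbours in that order overlapped over the 3 libraries. In UC3DDP the order was BIRC5 at 136 ± 14.0, HTRA2 at 31.1 ± 2.91, CASP8 at 26.7 ± 1.24, BIRC2 at 9.23 ± 2.32, CASP9 at 4.09 ± 0.333, BIRC6 at 3.62 ± 1.05, XIAP at 3.40 ± 0.755 and DIABLO at 1.58 ± 0.455. CASP9, BIRC6 and XIAP overlapped one another there, while in UC3 BIRC6 and XIAP both lay above CASP9. With the adjustment CASP9 lay below XIAP in every library of both lines. Survivin's gene stayed the highest of the 8 in both lines, and the HTRA2 gene stood above XIAP, BIRC2 and BIRC6 in UC3DDP alone; with the adjustment it was above XIAP in UC3 too.

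These shifts were described as log2 ratios of CPM per kb within each library, with no test, since the genes were compared above. HTRA2 to XIAP was at -0.11, -0.23 and -0.31 in UC3 and at 3.72, 2.79 and 3.14 in UC3DDP, a difference between the means of 3.43. HTRA2 was thus slightly below XIAP in each UC3 library and above it in each UC3DDP library, while after adjustment the mean ratio was 0.58 in UC3 and 2.42 in UC3DDP, above 0 in both. The difference was 3.12 for HTRA2 to BIRC2 and 4.24 for HTRA2 to BIRC6. It shrank to 1.84, 1.63 and 2.99 for XIAP, BIRC2 and BIRC6 after adjustment, with no overlap between the lines. For CASP9 to XIAP the mean went from -2.02 ± 0.181 to 0.29 ± 0.454, and the difference was 2.31 without and 0.50 with the adjustment. After adjustment the mean ratio of CASP9 to XIAP was -1.115 in UC3 and -0.615 in UC3DDP, below 0 in both. For CASP8 to XIAP the difference was 1.64 without and 0.82 with the adjustment. DIABLO stayed below XIAP in every library, at -3.88 to -3.85 in UC3 and -1.82 to -0.75 in UC3DDP on this log2 ratio scale. DIABLO's place here and in the order of levels rests on 23 to 51 reads a library. How reads of its shared bases were counted is not given.

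**Figure D4:**
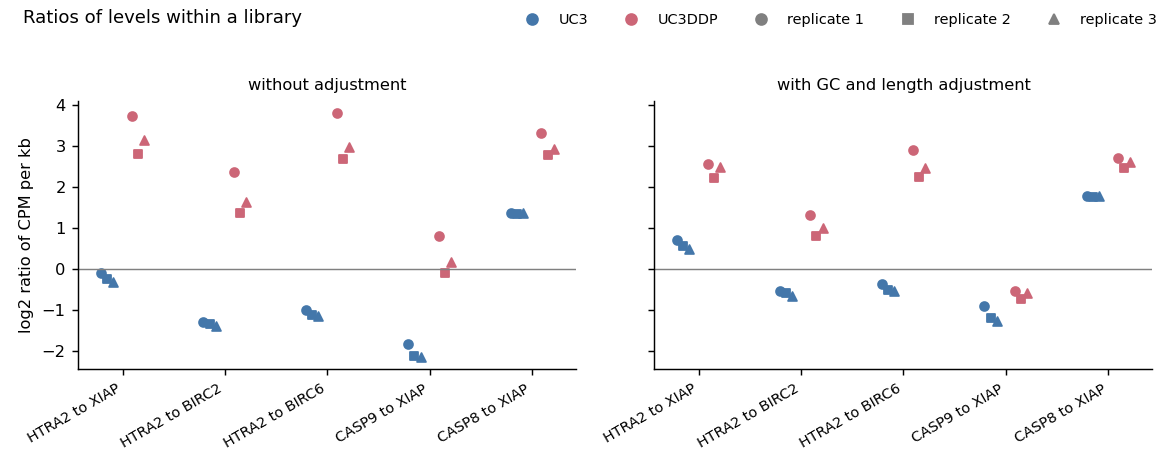
Log2 ratio of CPM per kb between pairs of the genes within each library, for UC3 and UC3DDP, without the adjustment and with it; each point is 1 library. Every pair is higher in all 3 UC3DDP libraries in both panels, and HTRA2 to BIRC6 differs most, by 4.24 and by 2.99 after adjustment.

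The genes around the 8 were taken from 10 lists, here described by counts and medians, with 1 list entering only the totals. Leaving out the 8 themselves, 72 of 85 list genes were in the table and 67 were tested. Of these 12 were called higher and 11 lower, with a median log2 fold change of 0.33, beside 17.6% higher, 23.1% lower and 0.02 over all genes. In the adjusted fit 8 were higher and 6 lower, with a median of 0.01, beside 13.1% higher, 14.7% lower and -0.04 over all genes. The counts for single lists below include those of the 8 genes that a list holds. They stand beside 17.6% called higher and 23.1% called lower over all tested genes.

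Among 8 tested initiator caspases and their platforms, only FADD, the death receptor adaptor of caspase-8, was called, at 36.2 ± 1.70 CPM in UC3 and 86.0 ± 11.4 CPM in UC3DDP (log2 fold change 1.25, adjusted p = 4.46e-06). It was at 0.47 in the adjusted fit, under the fold limit. APAF1, the apoptosome platform of caspase-9, had a log2 fold change of -0.40 (adjusted p = 0.0582), and CFLAR, the decoy that restrains caspase-8, of -0.24 (adjusted p = 0.0177); both turned positive after adjustment, at 0.38 and 0.49. CASP10 was not analysed here. Of 7 tested death receptors and ligands 1 was called, TNFRSF21, known as death receptor 6, at 4.42 CPM in UC3 and 18.7 CPM in UC3DDP (log2 fold change 2.08, 1.69 adjusted).

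The 6 tested inflammatory caspases and platforms held 3 called higher and 1 lower. Of these NLRP3, an inflammasome sensor, rose from 3.39 to 10.6 CPM (log2 fold change 1.64, 1.31 adjusted), and CARD8, another sensor, fell from 63.8 to 27.5 CPM (-1.21, -0.44 adjusted). The tested caspase gene of this list, CASP4, was under the fold limit at 0.88. It was at 1.92 in the adjusted fit and called higher there.

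The inhibitor of apoptosis family had 5 tested genes, of which 4 were called lower and 1 higher, beside 23.1% and 17.6% of all tested genes, with a median log2 fold change of -1.76 that was -0.50 after adjustment; it contains 4 of the 8 genes. BIRC3, which encodes cIAP2, the close relative of cIAP1, fell from 128 ± 5.19 to 21.5 ± 5.71 CPM (log2 fold change -2.58, SE 0.169, adjusted p = 1.25e-06). BIRC3 stayed lower at -1.06 in the adjusted fit, in which BIRC6 and BIRC3 were the 2 family genes called. NAIP was not tested, with 6, 10 and 19 reads in UC3 and 1, 1 and 2 in UC3DDP. Among the 16 tested partners of cIAP1 at TNF receptors, 3 were called higher and 2 lower, with a median of -0.10. TRAF1, an adaptor, rose from 2.52 to 15.5 CPM (log2 fold change 2.62, 2.04 adjusted), and TAB3, a subunit of the TAK1 kinase complex, fell from 64.5 to 24.8 CPM (-1.38, -0.30 adjusted). TRAF2, the adaptor that recruits cIAP1, was at 0.95 and at 0.15 after adjustment, and the kinase gene RIPK1 at -0.24 and -0.44.

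Mitochondrial death factors had 8 tested genes, 2 of them called higher, HTRA2 included, and 1 lower. CYCS, the cytochrome c gene, fell from 293 ± 5.71 to 131 ± 11.7 CPM (log2 fold change -1.17, adjusted p = 1.63e-06) and was at -0.41 after adjustment, where HTRA2 was at 1.34. SEPTIN4, whose ARTS isoform binds XIAP, rose from 0.347 to 1.53 CPM (log2 fold change 2.12, 1.48 adjusted). XAF1, which encodes another protein that binds XIAP, was not tested, with 4, 1 and 3 reads in UC3 and 10, 5 and 4 in UC3DDP. Mitochondrial proteases and HTRA relatives had 11 tested genes, 2 higher and 3 lower, among them CLPX, a subunit of the matrix protease ClpXP, which fell from 172 ± 4.86 to 24.9 ± 6.76 CPM (-2.79, -2.09 adjusted). HTRA2 had the largest rise among the genes of this list called higher in the fit without adjustment.

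Survivin acts with INCENP, borealin, the product of CDCA8, and the kinase AURKB, and XPO1 exports it from the nucleus. In this list of 6 tested genes 2 were called higher, BIRC5 included, and 1 lower. INCENP was at a log2 fold change of 0.23 (adjusted p = 0.00926), CDCA8 at 0.58 (adjusted p = 9.95e-05) and AURKB at 0.02 (adjusted p = 0.875), all under the fold limit, beside 1.27 for BIRC5. After adjustment they were at -0.44, 0.14 and -0.67, beside 0.80. AURKC, a kinase related to AURKB, rose from 0.931 to 1.96 CPM (1.08, 0.42 adjusted), and XPO1 fell from 691 ± 12.4 to 149 ± 36.3 CPM (-2.21, -1.01 adjusted).

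BIRC6 receives ubiquitin from the activating enzyme UBA6, which in turn works with the conjugating enzyme UBE2Z. UBA6 fell from 147 ± 3.65 to 35.4 ± 10.2 CPM, a log2 fold change of -2.05 (adjusted p = 7.31e-06) that was -0.37 after adjustment. UBE2Z rose from 98.2 to 224 CPM, with 1.19 (adjusted p = 1.23e-06) and 1.01 after adjustment. They were the 2 called of 5 tested ubiquitin partners of BIRC6.

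**Figure D5:**
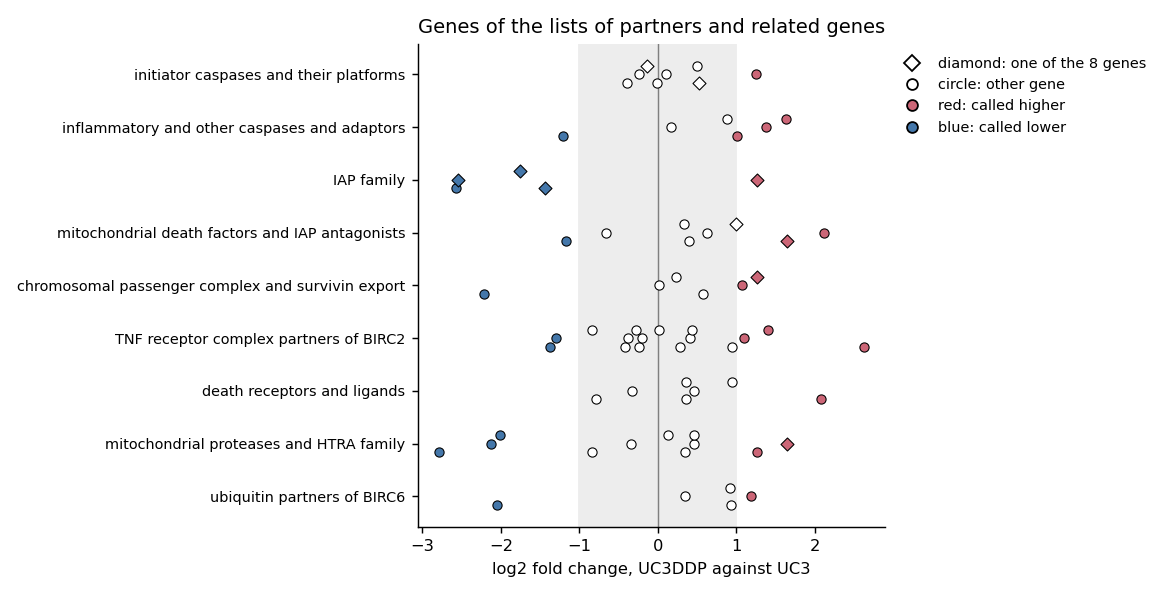
Log2 fold change of UC3DDP against UC3 without adjustment for the tested genes of the lists described in the text, 1 row a list; diamonds are the 8 genes, circles other list genes, colour marks genes called higher or lower, and the grey band spans the fold limit of 1 on either side of 0. In the inhibitor of apoptosis row 4 of 5 genes are called lower and BIRC5 is called higher, while the row of TNF receptor partners has a median of -0.10.

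The tested protein-coding genes whose profile over the 6 libraries was closest were found for BIRC6, XIAP and HTRA2, by the root mean square difference of log2 CPM centred on each gene's mean. Closest to BIRC6 were TIA1 at 0.0208, UPF2 at 0.0248 and CEP170 at 0.0265. XIAP was closest to VPS36 at 0.0116, VIRMA at 0.0164 and NAV3 at 0.021. For HTRA2 the nearest were GFPT2 at 0.036, MARK4 at 0.0373 and JDP2 at 0.0434. With 6 libraries in 2 groups, such likeness rests mostly on the difference between the lines and on the order within UC3DDP.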

How the data were processed

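Samples were grouped by the line in their titles, 3 libraries of UC3 and 3 of UC3DDP. The labels disagree: the series title names T24, the extraction text retinas, and the submitters' processing notes the mouse build mm9. Gene identifiers and positions in the table are human, GRCh38.p13, and the table was read as human UC3 data, following the titles and the study's methods. Those methods name Fastp for read quality control, HISAT2 for alignment and featureCounts for counting. The authors deposited raw counts per gene and the summed exon length. The deposited table also holds the authors' own log2 fold change, linear fold ratio, p-value and false discovery rate, none of which was used.

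The counts were tested with edgeR 4.0.16 in R 4.3.3 (quasi-likelihood test, TMM, filterByExpr with a minimum count of 10, no covariate), which left 15120 of 18936 genes, with Benjamini-Hochberg adjustment over all of them. SE is the absolute log2 fold change divided by the square root of the F statistic. The adjusted fit used an offset from each library's loess trend (span 0.3) on GC content of the longest GENCODE 44 transcript and then on exon length. The trend was fitted to log2 CPM minus the gene's mean over the 6 libraries. An annotated transcript was found for 18895 genes, and tested genes without one took the library's median trend. The log2 CPM values used a prior count of 2. The code was tested on simulated data.

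The 8 genes, the lists and the tests were chosen with earlier results of these data known. Named besides the 8 are, per list, the called gene with the largest change in each direction with the higher line at 1 CPM or more, a set of direct partners, and the 3 closest profiles of the 3 genes that changed most. LOXL3, AUP1 and B3GNT4 were named for their shared exons. AURKC, NAIP, CASP4 and HTRA1 were chosen after their values were seen. Some genes named by this rule, and the list that holds them, are not reported here. Alternatives were DESeq2 1.42.0, limma 3.58.1 voom, other scaling, no filter, no fold limit, the replicate number as a block, the GC and length adjustment and leaving out each library; GC adjustment alone was added after the data were seen.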

Additional observations from a re-analysis of the deposited data

How the results depend on the processing

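Calls for the 8 genes, 2 higher and 3 lower, were the same counts under DESeq2, no filter, library totals alone, DESeq2 size factors and limma voom. With no fold limit 4 were higher and 3 lower, beside 6134 and 6038 of all 15120 tested genes. The number lower was 1 under the GC and length adjustment, under GC adjustment alone, and under the adjustment with the replicate block or without UC3DDP replicate 1. Over all tested genes 14.7% were called lower under the GC and length adjustment. Leaving out 1 library gave 2 to 3 higher, with DIABLO past the limit without UC3DDP replicate 1 (1.01) or replicate 2 (1.17), and 3 lower each time. CASP8 turned from -0.14 to 0.32 under the GC and length adjustment, 0.37 under GC alone, 0.32 with the block and 0.29 without UC3DDP replicate 1. CASP9 turned from 0.52 to -0.012, to -0.010 with the block and to -0.020 without that library, and was 0.06 under GC alone. The adjustment removes each library's trend with GC content and then with exon length, and that construction sets these changes. Under GC adjustment alone BIRC6 was at -2.09 and XIAP at -0.75, against -1.64 and -0.50 with length as well. Whether these trends are technical was not tested.

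Same-numbered libraries of the lines did not deviate together, with correlations of -0.0474, -0.0136 and -0.00889. Differently numbered libraries were at -0.0282 to 0.042. Such small values cannot exclude that the numbers mark pairs, and the labels do not say whether they do. With the replicate block alone, 2 of the 8 were higher and 3 lower, and 2660 and 3514 of all genes. Of the 20 counts of list genes called, 11 moved by over 1.5 times under the GC and length adjustment and none under DESeq2 or voom. Depth limits DIABLO most, with 23 to 51 reads a library.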
